A study of Mus musculus with 4 samples.

Results

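The genes described here act in homologous recombination, the Fanconi pathway, the DNA damage checkpoint, end joining, mismatch recognition and PARP signalling. They were chosen by name from a list of 40 symbols, of which 39 were found among the 16142 genes of the deposited FPKM table. The remaining symbol, H2afx, is carried in the table as H2ax and is described separately without being counted. Levels were read in 4 libraries, 2 from wild-type (WT) and 2 from R111A cells.

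The study concerned the RNase Regnase-1, encoded by Zc3h12a, in regulatory T cells, using a mutant that the protease MALT1 can no longer cleave, and its RNA-seq was made from CD4 T cells. The WT cells came from B6 mice. The R111A cells came from mice with a Regnase-1 transgene mutated at the MALT1 cleavage site, driven by the CAG promoter at Rosa26 behind a floxed stop and followed by P2A-EGFP, with a tamoxifen-dependent Cre under Cd4 control. The endogenous Zc3h12a gene was kept in the R111A mice, and the animals of the study were 6 to 12 weeks old. Tamoxifen was given intraperitoneally at 75 mg/kg for 5 days, although the labels can be read as covering both genotypes or only R111A, and tamoxifen-treated WT mice served as controls elsewhere in the study. Splenic CD4 T cells were isolated, sorted by flow cytometry and activated over 12 h by antibodies to CD3 (5 µg/mL) plus CD28 (1 µg/mL). Because WT cells lacked Cre, EGFP and the transgene, effects of these cannot be told apart from effects of the cleavage-site change. Unstimulated cells were not analysed here.

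Zc3h12a read 16.97 and 15.72 FPKM in WT and 196.3 and 130.87 FPKM in R111A, so the R111A libraries lay above both WT libraries. Its R111A mean was 10.0-fold the WT mean (log2 fold change 3.22, adjusted p = 9.2e-06 from limma). Reads of the transgene and of the endogenous gene were not separated.

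Double-strand breaks are repaired by homologous recombination, which copies an intact sister chromatid and so works mainly after replication, or by end joining, which works throughout the cycle. The Fanconi pathway unhooks crosslinks between strands and passes the resulting breaks to recombination. ATR with CHEK1 answers stalled replication forks, while ATM with CHEK2 answers double-strand breaks, and many genes of recombination are transcribed as resting lymphocytes enter the cycle.

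Of the 39 members, 35 had both R111A values below both WT values, 0 had both above, and in 4 the groups overlapped (Rad51b, Brip1, Atrip and Chek2). Of the 32 tested members 93.8% had both R111A values below both WT values, against 46.3% of 9831 genes tested (4549 below, 3150 above and 2132 overlapping). The summed level of the members was 464.39 and 444.82 FPKM in WT and 233.39 and 284.23 FPKM in R111A. The 32 members with a mean of at least 1 FPKM were tested with limma, and 7 were under this filter (Brca2, Bard1, Rad51b, Rad51c, Rad54b, Fancd2 and Brip1). At least 2-fold and adjusted p under 0.05, 9 members were lower in R111A (28.1%, against 8.34% of 9831 genes tested) and 0 were higher (8.52% of genes tested). Of these 9, Exo1, Rad51ap1, Rad54l and Fanca passed the filter only through their WT means. The shares of tested members are therefore given as a description, and no excess over all genes is drawn from them. At adjusted p alone, 22 were lower (68.8%, against 32.1%) and 0 were higher (21.2%), and 0 were higher at unadjusted p under 0.05 from limma. Leaving out WT replicate 1 gave 14 members lower at adjusted p (43.8%, against 19.4% of all genes tested) and leaving out WT replicate 2 gave 13 (40.6%, against 19.3%). Without R111A replicate 1 there were 23 of 34 and without R111A replicate 2 there were 31 of 34, where Brca2 and Rad54b passed the filter only because a low R111A library was left out, so these counts are not compared with all genes. A bulk level cannot tell fewer cells of a type from less RNA per cell.

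The median log2 fold change of the tested members was -0.54 (quartiles -1.09 and -0.42), against -0.12 for all genes tested. The groups also differed in summed FPKM, at 801475 and 836143 in WT and 1053551 and 1012215 in R111A. Rescaling every library to the same sum moved the all-gene median by -0.30, to -0.42. The same rescaling changed the calls over all genes from 820 lower and 838 higher to 1749 lower and 583 higher, and at adjusted p from 3152 and 2088 to 5096 and 1335. Relative to the all-gene median, the member median was -0.42 as deposited and -0.39 after rescaling. In every scaling 30 of 32 members lay below the all-gene median, and the exceptions were Atrip and Chek2, which also changed sign under median-of-ratios factors. Among the tested members, 6 had a WT mean over 1 FPKM and an R111A mean under it (Exo1, Brca1, Rad51ap1, Rad54l, Fanca and Fancb), so the filter itself depended on the change and these counts and medians carry that dependence.

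**Figure D1:**
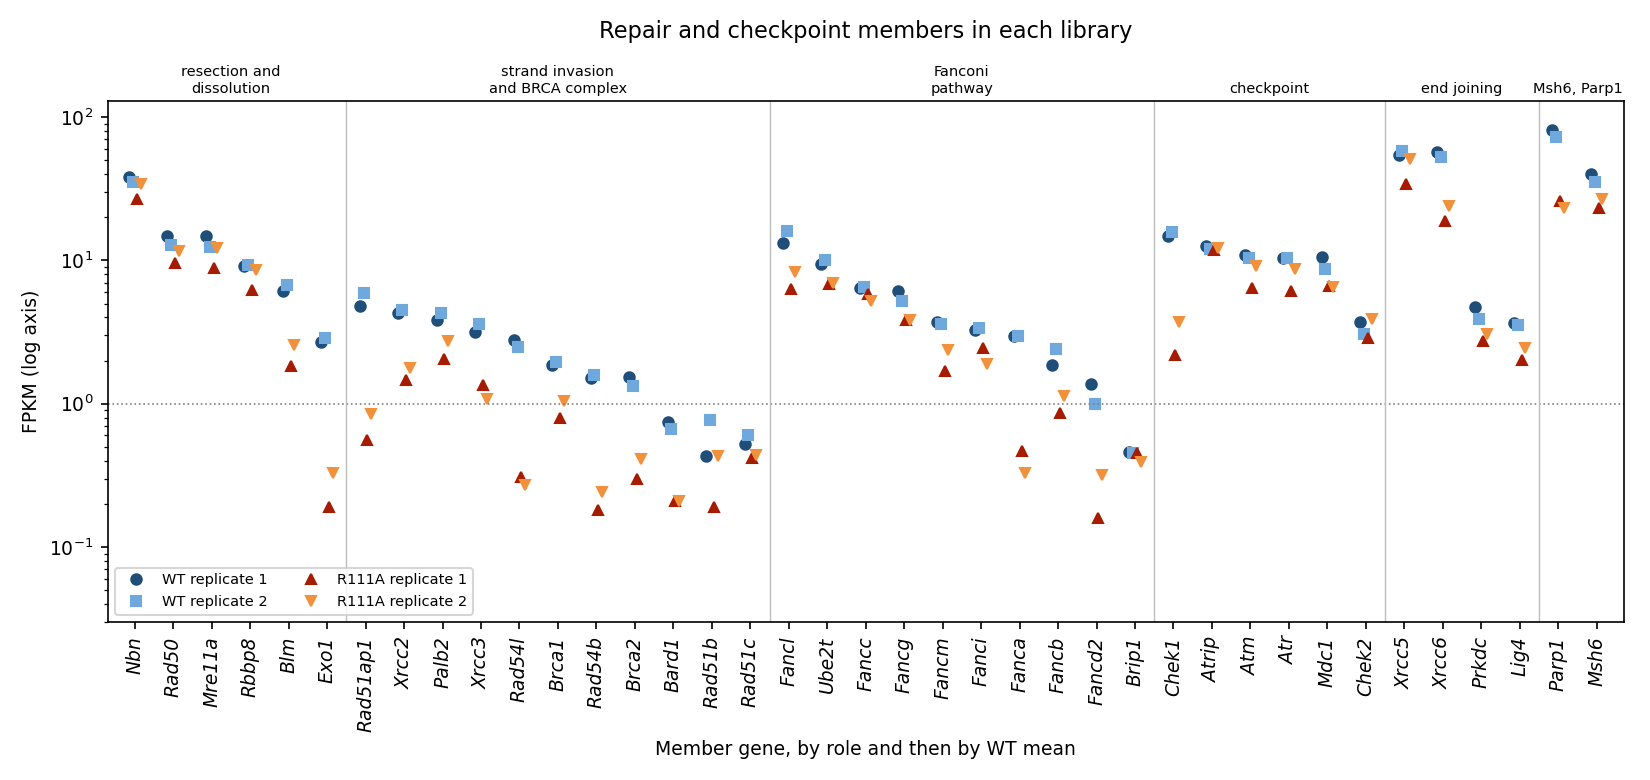
FPKM (log axis) of the 39 members in each of the 4 libraries, by role and then by WT mean, with symbols for the WT and R111A replicates and a dotted line at 1 FPKM. Both R111A symbols lay below both WT symbols for 35 of 39 members (of the tested members 93.8%, against 46.3% of all genes tested), and the groups overlapped for Rad51b, Brip1, Atrip and Chek2, of which Atrip and Chek2 changed direction under median-of-ratios factors.

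Fold changes were taken on log2(FPKM + 1), which understates the change of genes with low values, so the ratio of FPKM means is given beside them. Nothing in the labels says that replicates came from separate animals, so p-values measure only the spread between these samples, which may be technical. With 2 against 2 libraries the smallest exact two-sided permutation p is 0.333, so the smaller values rest on the variance model of limma. The members were expressed at low to moderate levels on the length-scaled FPKM scale. Their means ran from 0.438 FPKM for Brip1 to 51.0 FPKM for Parp1, with a median of 3.39 FPKM over the 39 members. Among genes that passed the filter the median was 5.37 FPKM for the 32 tested members and 14.9 FPKM for all genes tested.

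Exo1, Blm, Mre11a, Rad50, Nbn and Rbbp8 act in end resection and in the dissolution of recombination intermediates. Exo1 encodes a nuclease that lengthens the resected single strand. It read 2.68 and 2.87 FPKM in WT and 0.19 and 0.33 FPKM in R111A. Both R111A libraries lay under both WT libraries, at 6.85% and 11.9% of the WT mean. Exo1 fell 10.7-fold in FPKM (log2 fold change -1.58, adjusted p = 4.9e-05). Blm encodes the helicase that opens DNA for long-range resection and dissolves double Holliday junctions. It read 6.11 and 6.76 FPKM in WT and 1.84 and 2.57 FPKM in R111A, again without overlap. Blm fell 2.92-fold in FPKM (log2 fold change -1.22, adjusted p = 0.00038).

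Mre11a encodes the nuclease of the complex that senses the break and starts resection. It read 14.77 and 12.44 FPKM in WT and 8.82 and 12.23 FPKM in R111A. R111A replicate 2 was close to WT replicate 2, and replicate 1 was lower. Its log2 fold change was -0.35 (adjusted p = 0.13). Its partners Rad50 and Nbn and the resection starter Rbbp8 had the same pattern, with log2 fold changes from -0.35 to -0.28 and adjusted p from 0.088 to 0.17. Without R111A replicate 2 the log2 fold changes of Mre11a, Rad50, Nbn and Rbbp8 ran from -0.57 to -0.45. Without R111A replicate 1 they ran from -0.22 (Rad50) to -0.09 (Rbbp8). After rescaling to the same library sum these genes passed at adjusted p, with log2 fold changes from -0.67 to -0.60. In this group 2 of 6 members, Exo1 and Blm, passed at adjusted p, and 6 of 6 passed after rescaling. Because Exo1 passed the filter only through its WT mean, these counts are not compared with the share of all genes.

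Brca1, Bard1, Palb2, Brca2, Rad51b, Rad51c, Rad51ap1, Xrcc2, Xrcc3, Rad54l and Rad54b act in preparing the resected strand and in strand invasion. Rad51ap1 encodes a DNA-binding protein that stimulates strand pairing. It read 4.82 and 5.88 FPKM in WT and 0.56 and 0.85 FPKM in R111A, so the groups were far apart. Rad51ap1 fell 7.59-fold in FPKM (log2 fold change -1.90, adjusted p = 3.8e-05). Rad54l encodes the motor protein that drives strand exchange. It read 2.76 and 2.47 FPKM in WT and 0.31 and 0.27 FPKM in R111A, without overlap. Rad54l fell 9.02-fold in FPKM (log2 fold change -1.49, adjusted p = 6e-05).

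Xrcc2 encodes a subunit of a complex that prepares strand invasion. It read 4.29 and 4.51 FPKM in WT and 1.47 and 1.76 FPKM in R111A, with both R111A libraries low. Xrcc2 fell 2.72-fold in FPKM (log2 fold change -1.05, adjusted p = 0.00044), and without R111A replicate 1 the log2 fold change was -0.97 and under 2-fold, as was the -0.98 under median-of-ratios factors. Xrcc3, which forms a complex with the product of Rad51c, fell 2.77-fold in FPKM with a log2 fold change of -0.98 (adjusted p = 0.00071), just under the 2-fold limit. Without WT replicate 1 this was -1.05 and without R111A replicate 1 it was -1.07, so Xrcc3 was called in both cases.

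Brca1 encodes a ubiquitin ligase that favours resection and recruits PALB2. It read 1.86 and 1.96 FPKM in WT and 0.79 and 1.05 FPKM in R111A. Both R111A libraries were lower, at 41.4% and 55.0% of the WT mean. Brca1 fell 2.08-fold in FPKM (log2 fold change -0.60, adjusted p = 0.0073). Palb2 encodes the bridge between BRCA1 and BRCA2. It read 3.81 and 4.28 FPKM in WT and 2.04 and 2.72 FPKM in R111A, without overlap. Palb2 fell 1.70-fold in FPKM (log2 fold change -0.58, adjusted p = 0.013), and without WT replicate 2 the log2 fold change was -0.52 and did not pass (adjusted p over all alternatives up to 0.11).

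Brca2 encodes a tumour suppressor that acts after resection and before strand invasion, and it was under the filter. It read 1.54 and 1.33 FPKM in WT and 0.30 and 0.41 FPKM in R111A, with no overlap. In a fit without the filter its log2 fold change was -0.85 and its WT mean was 4.04-fold the R111A mean. Rad54b and Bard1, also under the filter, had WT means 7.38-fold and 3.38-fold their R111A means. Rad54b shared 39.2% of its exonic bases with other genes, Fsbp among them, so its level is uncertain. Rad51c and Rad51b had log2 fold changes of -0.13 and -0.29 in the fit without the filter, and the groups overlapped for Rad51b. Rad51c passed at adjusted p after rescaling (-0.25) and under quantile normalization (-0.34), and Rad51b passed only with the replicate block. Each of the 6 tested members of this group (Brca1, Palb2, Xrcc2, Xrcc3, Rad51ap1 and Rad54l) passed at adjusted p. Because 5 of 11 members of the group were under the filter, and Brca1, Rad51ap1 and Rad54l passed it only through their WT means, this count is not compared with the share of all genes.

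**Figure D2:**
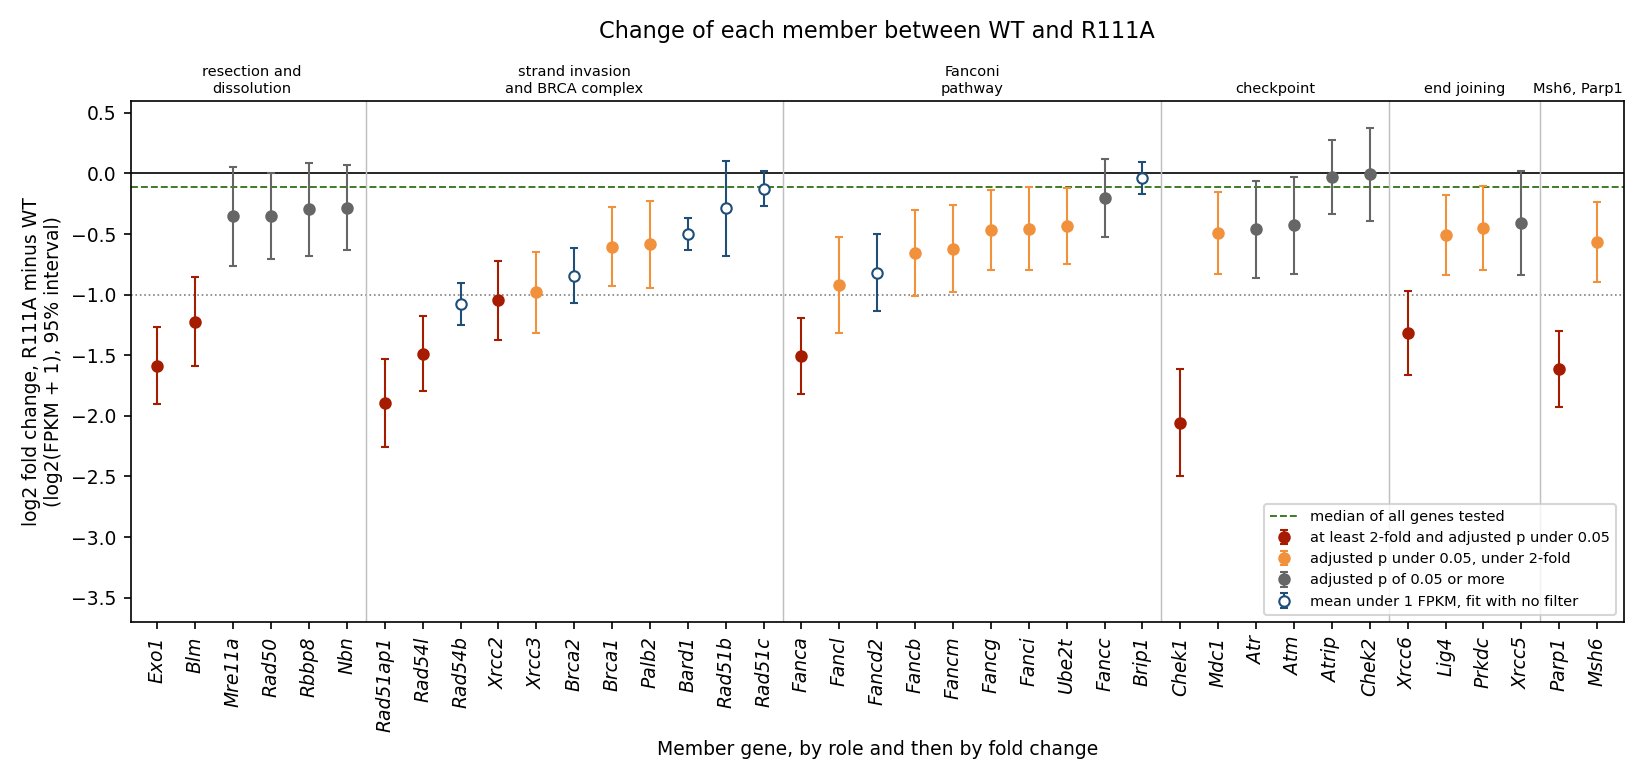
Log2 fold change (R111A minus WT, on log2(FPKM + 1)) with 95% interval for the 39 members, by role and then by fold change, with colours for the test result. The dashed line is the median of all genes tested at -0.12, the dotted line is -1, open symbols mark members under the filter, and Atrip and Chek2, near 0, changed sign under median-of-ratios factors.

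Fanca, Fancb, Fancc, Fancg, Fancl, Fancm, Ube2t, Fancd2, Fanci and Brip1 belong to the Fanconi pathway. Fanca encodes a subunit of the core complex that ubiquitinates FANCD2 and FANCI. It read 2.96 and 2.99 FPKM in WT and 0.47 and 0.33 FPKM in R111A, with both R111A libraries far below WT. Fanca fell 7.44-fold in FPKM (log2 fold change -1.51, adjusted p = 5.9e-05). Fancl encodes the ubiquitin ligase of the complex. It read 13.22 and 16.14 FPKM in WT and 6.28 and 8.35 FPKM in R111A, without overlap. Fancl fell 2.01-fold in FPKM (log2 fold change -0.92, adjusted p = 0.0024), and without WT replicate 1 the log2 fold change was -1.05, without R111A replicate 2 it was -1.10, and it was called in both cases.

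Fancb encodes a partner of FANCL in the catalytic module. It read 1.87 and 2.42 FPKM in WT and 0.86 and 1.13 FPKM in R111A, with both R111A libraries lower. Fancb fell 2.16-fold in FPKM (log2 fold change -0.65, adjusted p = 0.0074), and without WT replicate 2 it was -0.53 and did not pass. Fancd2 encodes the clamp subunit that is ubiquitinated at the crosslink, and it was under the filter. It read 1.38 and 1.00 FPKM in WT and 0.16 and 0.32 FPKM in R111A, without overlap. Its WT mean was 4.96-fold the R111A mean, with a log2 fold change of -0.82 in the fit without the filter.

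The core subunits Fancg and Fancm, the ubiquitin-conjugating enzyme Ube2t and the clamp subunit Fanci fell with log2 fold changes from -0.62 to -0.43 and adjusted p from 0.010 to 0.031. Without WT replicate 1, Fancm, Fancg, Ube2t and Fanci did not pass, with log2 fold changes of -0.60, -0.37, -0.48 and -0.48, and without WT replicate 2 Fancg, Ube2t and Fanci did not pass, at -0.57, -0.39 and -0.43. Under median-of-ratios factors Ube2t (-0.35) and Fanci (-0.39) did not pass, and in the fit without the filter Fancg and Fanci did not pass. Fancc had a log2 fold change of -0.20 (adjusted p = 0.25), and after rescaling it was -0.49 and passed. The helicase gene Brip1, under the filter, read 0.46 and 0.45 FPKM in WT and 0.45 and 0.39 FPKM in R111A, where the groups overlapped, although it passed under quantile normalization (-0.25). In this group 7 of 8 tested members passed at adjusted p, and 5 of 8 did under median-of-ratios factors. Of these 1, Fanca, was called at 2-fold, a call lost at a pseudocount of 5 FPKM (-0.56). Because Fanca and Fancb passed the filter only through their WT means, these counts are not compared with the share of all genes.

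Some exonic bases of Fancl (17.0%), Fanci (13.4%), Fanca (8.62%), Xrcc6 (8.50%), Atr (7.90%), Fancm (7.36%), Rbbp8 (6.97%), Fancd2 (4.64%) and Rad54l (4.12%) are shared with neighbouring genes in GENCODE M21. The strand of counting was not stated, so their levels may hold reads of those neighbours.

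Chek1, Chek2, Atm, Atr, Atrip and Mdc1 carry the checkpoint signal. Chek1 encodes the kinase that restrains origin firing and mitotic entry when forks stall. It read 14.69 and 15.67 FPKM in WT and 2.20 and 3.72 FPKM in R111A, which was 14.5% and 24.5% of the WT mean. Chek1 fell 5.13-fold in FPKM (log2 fold change -2.06, adjusted p = 6.6e-05), the lowest log2 fold change of the 32 tested members on this scale. At a pseudocount of 0.1 FPKM Exo1 (-3.02), Rad54l (-2.80), Rad51ap1 (-2.78) and Fanca (-2.63) were lower than Chek1 (-2.37), and under quantile normalization Rad51ap1 (-2.10) was lower than Chek1 (-2.04). At a pseudocount of 5 FPKM Parp1 (-1.48) was lower than Chek1 (-1.35). Its upstream kinase gene Atr read 10.42 and 10.47 FPKM in WT and 6.11 and 8.74 FPKM in R111A. The R111A libraries were 58.5% and 83.7% of the WT mean. Atr had a log2 fold change of -0.46 (adjusted p = 0.053).

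Atm encodes the kinase activated at double-strand breaks. It read 10.92 and 10.45 FPKM in WT and 6.42 and 9.16 FPKM in R111A. R111A replicate 1 was well below WT and replicate 2 was 85.7% of the WT mean. Atm had a log2 fold change of -0.43 (adjusted p = 0.068). Without R111A replicate 2 the log2 fold changes of Atm and Atr were -0.65 and -0.69. Without R111A replicate 1 they were -0.20 and -0.23. With unchanged values both genes passed with the replicate block, and Atr passed without a trend and with the filter raised to 5 FPKM. Both also passed after rescaling to the same library sum, where the log2 fold change of Atm was -0.73 and that of Atr -0.77, and the adjusted p over all alternatives ran from 0.0022 to 0.29 for Atm and from 0.0017 to 0.22 for Atr.

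Chek2 encodes the kinase downstream of ATM. It read 3.74 and 3.04 FPKM in WT and 2.88 and 3.89 FPKM in R111A, and the groups overlapped. Chek2 had a log2 fold change of -0.01 (adjusted p = 0.98), and it turned to 0.06 under median-of-ratios factors, to 0.11 without WT replicate 1 and to 0.16 without R111A replicate 1. Atrip encodes the partner that recruits ATR to single-stranded DNA. It read 12.54 and 12.02 FPKM in WT and 11.73 and 12.29 FPKM in R111A, with overlap and a log2 fold change of -0.03 (adjusted p = 0.87) that turned to 0.05 under quantile normalization, to 0.06 under median-of-ratios factors and to 0.00 without R111A replicate 1.

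Mdc1 encodes the scaffold that binds phosphorylated H2AX. It read 10.57 and 8.75 FPKM in WT and 6.64 and 6.51 FPKM in R111A, with both R111A libraries lower. Mdc1 fell 1.47-fold in FPKM (log2 fold change -0.49, adjusted p = 0.023), and it did not pass without WT replicate 1 (-0.36), without WT replicate 2 (-0.61) or in the fit without the filter. H2ax, the histone gene outside the count, read 32.84 and 33.41 FPKM in WT and 29.44 and 20.09 FPKM in R111A. Both R111A libraries lay below WT, with replicate 2 the lower. H2ax had a log2 fold change of -0.43 (adjusted p = 0.076). Without R111A replicate 1 it was -0.69, and its highest value over all alternatives was -0.16. H2ax passed after rescaling (-0.76), and 10.2% of its exonic bases were shared with another gene. In this group 2 of 6 members, Chek1 and Mdc1, passed at adjusted p (33.3%, against 32.1% of all genes tested), and 4 of 6 passed after rescaling, where 51.8% of all genes did.

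Xrcc5, Xrcc6, Prkdc and Lig4 act in end joining. Xrcc6 encodes the Ku70 subunit that binds broken ends. It read 56.75 and 52.40 FPKM in WT and 18.93 and 23.95 FPKM in R111A, without overlap. Xrcc6 fell 2.55-fold in FPKM (log2 fold change -1.32, adjusted p = 0.00019). Its partner Xrcc5, encoding Ku80, read 54.01 and 57.87 FPKM in WT and 34.22 and 51.07 FPKM in R111A. The R111A libraries were 61.2% and 91.3% of the WT mean. The log2 fold change of Xrcc5 was -0.41 (adjusted p = 0.095). Without R111A replicate 2 it was -0.69, and its highest value over all alternatives was -0.13. Xrcc5 passed after rescaling (-0.74) and, with the value unchanged, with the replicate block.

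Prkdc encodes the kinase that Ku recruits. It read 4.75 and 3.87 FPKM in WT and 2.72 and 3.04 FPKM in R111A, without overlap. Prkdc fell 1.50-fold in FPKM (log2 fold change -0.45, adjusted p = 0.034), and without R111A replicate 1 it was -0.39 and did not pass. It also did not pass under median-of-ratios factors (-0.38) or in the fit without the filter. Lig4 encodes the ligase that seals the ends. It read 3.64 and 3.55 FPKM in WT and 2.02 and 2.45 FPKM in R111A, with both R111A libraries lower. Lig4 fell 1.61-fold in FPKM (log2 fold change -0.51, adjusted p = 0.0165). Neither gene passed without WT replicate 1 (Prkdc -0.33, Lig4 -0.50) or without WT replicate 2 (Prkdc -0.57, Lig4 -0.52).

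Msh6 encodes a protein that recognizes mismatches. It read 40.29 and 35.00 FPKM in WT and 23.36 and 26.82 FPKM in R111A, without overlap. Msh6 fell 1.50-fold in FPKM (log2 fold change -0.57, adjusted p = 0.010), and it did not pass without WT replicate 1 (-0.47) or without WT replicate 2 (-0.67). Parp1 encodes the enzyme that marks strand breaks with poly(ADP-ribose) and had the highest mean of the members on the FPKM scale. It read 81.88 and 72.92 FPKM in WT and 26.08 and 23.13 FPKM in R111A, at 33.7% and 29.9% of the WT mean. Parp1 fell 3.15-fold in FPKM (log2 fold change -1.61, adjusted p = 4.1e-05).

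The R111A replicates differed from each other across the members. R111A replicate 1 was below replicate 2 in 24 of 32 tested members (75.0%), against 51.3% of all genes tested. The median log2 difference between these replicates was -0.20 over the members and -0.01 over all genes. Relative to the WT mean, the median member was at -0.69 in R111A replicate 1 and at -0.47 in replicate 2. Replicate 1 was the lower in 6 of 6 resection members, 4 of 4 end joining members (Xrcc5, Xrcc6, Prkdc and Lig4) and 5 of 6 checkpoint members. It was the lower in 4 of 6 tested strand invasion members, 4 of 8 Fanconi members and 1 of 2 members of mismatch recognition and PARP signalling. The difference was seen after the values were known, and its cause was not tested.

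**Figure D3:**
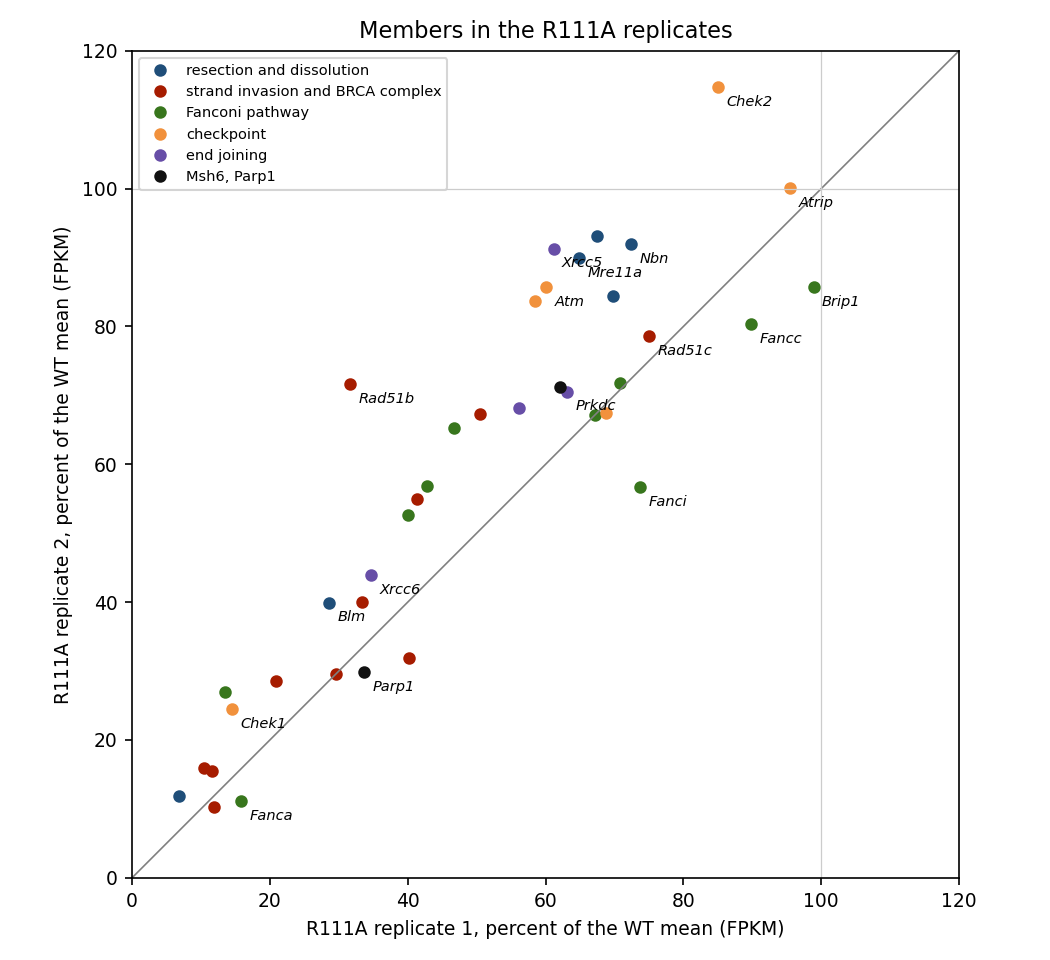
Each R111A replicate as percent of the WT mean for the 39 members (replicate 1 on the horizontal axis, replicate 2 on the vertical axis), coloured by role, with the diagonal marking equal values. R111A replicate 1 was the lower for 24 of 32 tested members, and Atrip and Chek2, near 100%, changed direction under median-of-ratios factors.

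E2F factors switch on many genes of replication and recombination, so the 250 bases before a start taken from the promoter table were read for the E2F letters TTTGGCGC, TTTCGCGC, TTTCCCGC and TTTGCCGC on both strands, none contained in another. Only 31 of 39 members (79.5%) were matched to a start, under the 80% needed, so a comparison of shares is void and none was made. Not matched were Rad50, Nbn, Rbbp8, Exo1, Xrcc2, Rad54b, Fancd2 and Prkdc. The letters occurred in 2.16% of 27025 genes with a promoter and in 4.29% of 8041 genes tested. They were found before Xrcc6, Mdc1, Fancg, Chek2, Brca2 and Bard1. The sequences of the tested members among these are shown because their log2 fold changes ran from -1.32 (Xrcc6) through -0.49 (Mdc1) and -0.47 (Fancg) to -0.01 (Chek2, which turned to 0.06 under median-of-ratios factors), so the letters can be read beside members with different fold changes. Capitals mark the motif, and sequences are from RefSeq on GRCm38.p6, written along the strand of the gene. A match is a description of the letters only.
Xrcc6: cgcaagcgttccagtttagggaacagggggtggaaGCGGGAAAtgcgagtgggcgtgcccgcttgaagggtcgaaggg
Mdc1: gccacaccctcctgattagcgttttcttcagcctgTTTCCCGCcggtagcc
Fancg: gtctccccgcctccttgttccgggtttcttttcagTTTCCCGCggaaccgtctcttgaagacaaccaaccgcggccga
Chek2: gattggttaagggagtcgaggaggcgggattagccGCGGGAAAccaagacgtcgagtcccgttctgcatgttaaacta
These runs are chr15:82016288-82016365 (plus strand), chr17:35841447-35841497 (plus strand), chr4:43010311-43010388 (minus strand) and chr5:110839796-110839873 (plus strand). The motif starts 46, 16, 52 and 152 bases before the start used for Xrcc6, Mdc1, Fancg and Chek2. In Xrcc6, Fancg and Chek2 the motif lies inside the annotated gene span, and only in Mdc1 is it upstream of the span.

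Other repair genes, outside the members, were read as a comparison. Among 31 further tested genes of homologous recombination, 18 were lower and 2 higher at adjusted p (58.1% and 6.45%, against 32.1% and 21.2% of all genes tested), and 8 were lower by at least 2-fold. The lowest were Fignl1, encoding an ATPase of recombination, and Rmi2, encoding a BLM partner. Fignl1 read 16.11 and 15.73 FPKM in WT and 1.25 and 2.20 FPKM in R111A, without overlap (log2 fold change -2.66, adjusted p = 1.6e-05). Rmi2 read 7.87 and 7.39 FPKM in WT and 0.49 and 0.75 FPKM in R111A (log2 fold change -2.42, adjusted p = 1e-05). The higher genes were Rad52, which anneals single strands, and the BRCA2 partner gene Sem1. Rad52 read 7.78 and 8.03 FPKM in WT and 11.84 and 12.61 FPKM in R111A. The log2 fold change of Rad52 was 0.57 and that of Sem1 was 0.41, and after rescaling to the same library sum these were 0.27 and 0.08 and did not pass.

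Among 15 further tested Fanconi genes, 8 were lower (53.3%) and 0 higher at adjusted p, against 32.1% and 21.2% of all genes tested. At unadjusted p under 0.05 from limma 1 was higher. At adjusted p 2 were higher under median-of-ratios factors and 1 under quantile normalization. After rescaling 11 of 15 were lower and 0 higher, where 51.8% of all genes tested were lower. Cenps, of the complex that anchors FANCM, read 17.99 and 17.31 FPKM in WT and 3.33 and 5.59 FPKM in R111A (log2 fold change -1.80). Mad2l2, of translesion polymerase zeta and shieldin, read 48.94 and 47.46 FPKM in WT and 22.96 and 19.19 FPKM in R111A (log2 fold change -1.16). Among 23 further tested checkpoint genes, 14 were lower (60.9%) and 2 higher (8.70%). Wee1, which holds CDK1 inactive, read 11.58 and 11.30 FPKM in WT and 2.12 and 1.88 FPKM in R111A (log2 fold change -2.05). Topbp1, the activator of ATR, read 58.48 and 56.03 FPKM in WT and 13.31 and 16.80 FPKM in R111A (log2 fold change -1.87). The higher genes were the phosphatase gene Cdc25b and the BRCA1-A subunit gene Uimc1, with log2 fold changes of 1.19 and 0.53, and Uimc1 was 0.21 after rescaling and did not pass.

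Among 16 further tested genes of end joining and PARP signalling, 6 were lower (37.5%, against 32.1% of all genes tested) and 1, Nhej1, was higher at adjusted p. After rescaling 11 of 16 were lower, where 51.8% of all genes tested were. The lowest were Lig3 and Tdp1, with log2 fold changes of -0.84 and -0.81. Nhej1, encoding a LIG4 cofactor, read 3.45 and 3.97 FPKM in WT and 4.92 and 6.20 FPKM in R111A (log2 fold change 0.47, and 0.20 after rescaling, which did not pass). Among 28 tested genes of excision repair, 11 were lower (39.3%, against 32.1%) and 3 higher (10.7%, against 21.2%). After rescaling 20 of 28 were lower and 1 was higher, where 51.8% of all genes tested were lower and 1335 of 9831 higher. Ung read 53.04 and 54.48 FPKM in WT and 13.35 and 10.67 FPKM in R111A (log2 fold change -2.08). Ung and Tdg (-1.02), both uracil or thymine glycosylase genes, were the lowest, and Ercc5 (1.13) and Ercc6 (0.66) of nucleotide excision repair the highest, although Ercc6 did not pass after rescaling (0.35).

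Lists of origin licensing, S-phase and G2/M genes had lower medians than the members. The median log2 fold change was -1.33 for 23 genes of MCM and origin licensing, -1.35 for 27 polymerase and S-phase genes and -0.67 for 18 tested G2/M genes. The lowest were Mcm5 and Mcm3 (-2.93 each), Chaf1a (-2.41) and Lig1 (-2.38), and Top2a (-2.33) and Cdca8 (-1.47). In each of these lists 1 gene was higher at adjusted p, among them Orc5 (0.45) and Ccnb2 (0.99). After rescaling 0 were higher in the licensing list, where Orc5 (0.13) did not pass, and 0 in the S-phase list. In the G2/M list 1 was still higher after rescaling. Over 13 tested E2F and pocket protein genes the median was -0.01, which turned to 0.05 under median-of-ratios factors. E2f1 itself read 8.08 and 7.97 FPKM in WT and 1.23 and 1.09 FPKM in R111A (log2 fold change -2.06, adjusted p = 1.4e-05). Its partner Tfdp1 read 125.73 and 130.3 FPKM in WT and 29.29 and 31.67 FPKM in R111A (log2 fold change -2.04), and the pocket protein gene Rb1 was higher (0.78, adjusted p = 0.0045). Over 21 tested p53 targets the median was 1.61, with 19 higher and 1, Ei24 (-0.49), lower at adjusted p, and with Cdkn1a (3.89) and Bbc3 (3.52) the highest. After rescaling 16 were higher, and under median-of-ratios factors and quantile normalization 0 were lower, so Ei24 did not pass there. A lower share of cells in S phase and a lower transcript level per cycling cell cannot be told apart here, and p53 activity was not measured.

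**Figure D4:**
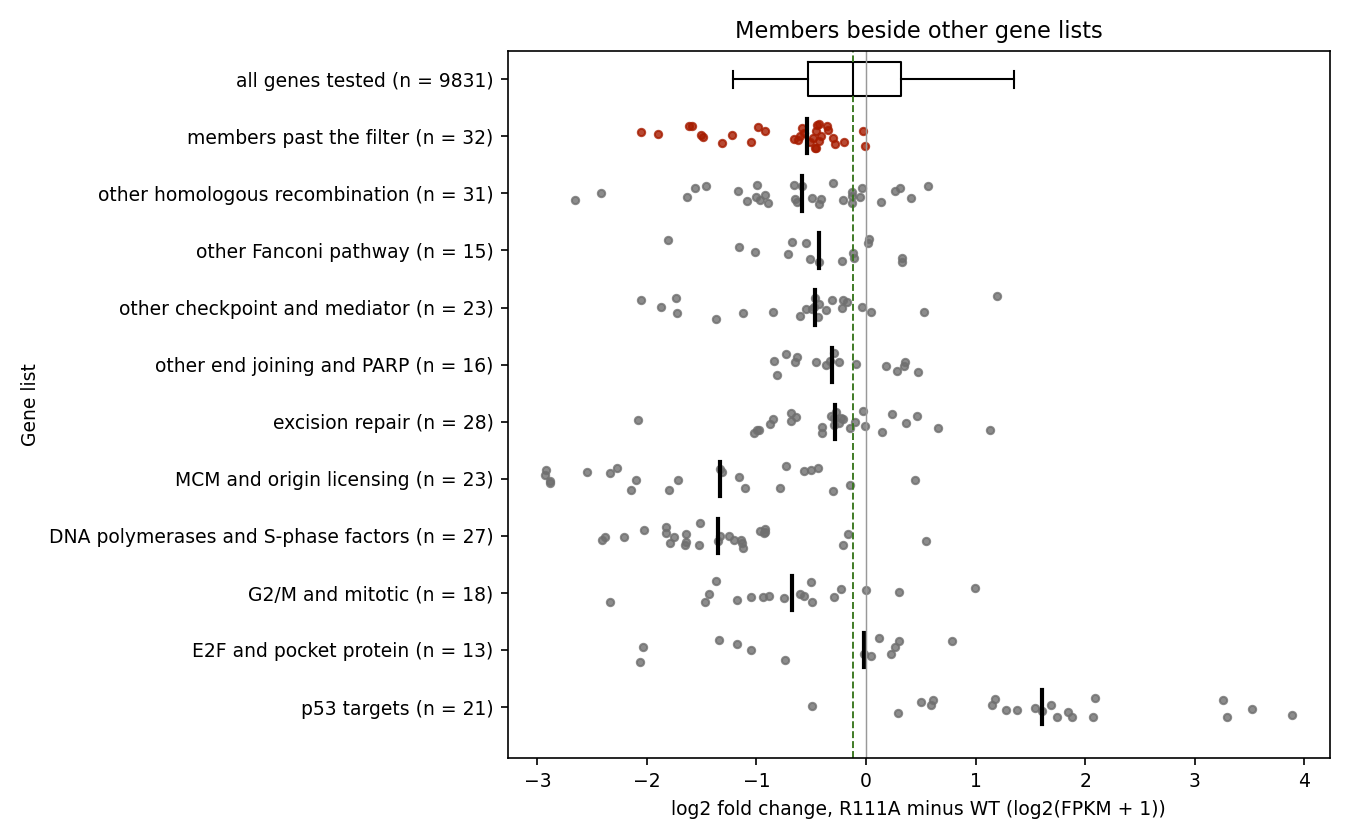
Log2 fold change (R111A minus WT) of each tested gene, by list, with a bar at the median, and all genes tested as a box from 25% to 75% with whiskers from 5% to 95%, the dashed line marking their median. The medians were -0.54 for the members, -1.33 for MCM and origin licensing and 1.61 for p53 targets, and the median of the E2F list (-0.01) turned to 0.05 under median-of-ratios factors.

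Markers of other cell types were read for changes in cell mixture. Of 7 CD4 T cell genes 5 were lower and 1, Cd3d, was higher in both R111A libraries. Among the lower genes, Cd4 read 157.54 and 131.28 FPKM in WT and 70.69 and 51.35 FPKM in R111A (log2 fold change -1.24, adjusted p = 0.00057 from limma). Zbtb7b read 22.64 and 22.01 FPKM in WT and 9.73 and 7.19 FPKM in R111A (log2 fold change -1.31, adjusted p = 0.00028 from limma). Cd3d read 205.01 and 213.72 FPKM in WT and 275.23 and 266.87 FPKM in R111A. The summed level of the 7 genes was 1467.73 and 1466.72 FPKM in WT and 1189.27 and 1134.39 FPKM in R111A, with Cd3g the most abundant. Of 3 Treg genes 2, Foxp3 and Il2ra, were lower in both R111A libraries (sums 156.02 and 149.24 against 132.51 and 134.83 FPKM). The sum was mostly Il2ra, which read 140.21 and 136.12 FPKM in WT and 127.3 and 128.61 FPKM in R111A. Its log2 fold change was -0.11 (adjusted p = 0.47 from limma), so the sum says little about the other 2 genes. Foxp3, the lineage marker, read 11.31 and 8.78 FPKM in WT and 2.86 and 1.86 FPKM in R111A (log2 fold change -1.72, adjusted p = 0.00015). Of 4 resting naive genes 4 were higher in both R111A libraries, with sums of 434.30 and 398.10 against 834.30 and 690.61 FPKM, mostly Ccr7. B cell genes summed to 2.13 and 0.95 FPKM in WT and 5.13 and 4.49 FPKM in R111A, with 2 of 5 higher and 1, Pax5, lower, Cd79a the most abundant. Myeloid genes summed to 0.68 and 0.67 against 6.76 and 4.26 FPKM, with 5 of 7 higher, Lyz2 the most abundant and S100a9 at 0 in every library. NK cell genes summed to 0.15 and 0.02 against 1.40 and 1.69 FPKM, with 4 of 4 higher and Klre1 the most abundant. Erythroid genes summed to 0.66 and 0.44 against 12.52 and 11.78 FPKM, nearly all Hba-a1, with 2 of 5 higher and Hbb-bs and Hba-a2 at 0. CD8 T cell genes summed to 8.19 and 7.56 against 10.56 and 8.78 FPKM, with 1 of 3 higher (Eomes, 0.88 and 0.80 against 6.68 and 4.32 FPKM) and Cd8a and Cd8b1, the most abundant, lower in both R111A libraries. The cells had been isolated with a kit that leaves CD4 T cells untouched and were then sorted, the methods describe a GFP gate for reporter mice, and the gate used for these libraries was not stated. The part of these cells in the result was not tested.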

How the data were processed

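The authors' deposited table of FPKM values per gene was used, with all 4 columns of per-sample values read and 0 left unused. According to the submitters' processing notes, reads were aligned to mm10 with Bowtie2 2.4.4 and quantified with RSEM 1.2.28, and the authors called genes with DESeq2. Here values were taken as log2(FPKM + 1), filtered at a mean of at least 1 FPKM and compared between R111A and WT with limma 3.58.1 in R 4.3.3, with a variance trend and adjustment over all 9831 genes tested. A call needed at least 2-fold and adjusted p under 0.05. Genes under the filter were fitted with no filter. Tables were made with python 3.11.15, numpy 2.4.6 and pandas 2.3.3. The code was tested on simulated data. Members were taken by symbol. Values were given in full for the 3 members of each role with the largest change, for any member higher in R111A at adjusted p, and for Brca1, Brca2, Palb2, Fancd2, Atm, Atr, Chek1, Chek2, H2afx, Prkdc and Parp1, and for the 2 largest changes in each direction in each other list. Other members were given by range and count, and some genes of the comparison lists are not reported here. The members and the comparison lists (other homologous recombination, Fanconi, checkpoint and end joining genes, excision repair, MCM and origin licensing, polymerases and S-phase factors, G2/M, E2F and pocket proteins, p53 targets and cell type markers) were chosen with earlier results of these data known. Alternatives tried were other pseudocounts and filters, rescaling to TPM, median-of-ratios factors, quantile normalization, a replicate block, limma without a trend or with robust moderation, and leaving out each library. Promoters were taken from RefSeq on GRCm38.p6 and exons from GENCODE M21 on GRCm38.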

Additional observations from a re-analysis of the deposited data

How the results depend on the processing

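At a pseudocount of 5 FPKM, 402 genes were called lower and 386 higher, members called lower were 3 (Exo1, Blm, Xrcc2, Rad51ap1, Rad54l and Fanca were lost) and the member median was -0.30. At a pseudocount of 0.1 FPKM the member median was -0.64. With the filter raised to 5 FPKM, 521 genes were called higher. Of 16 members tested 3 were called lower, against 659 of 7648 genes tested. Of the same 16 members 8 were lower at adjusted p (50%, against 34.2% of all genes). The member median was -0.43, with fewer genes tested. Rescaling to TPM gave 1749 genes called lower, 5096 lower and 1335 higher at adjusted p, and a member median of -0.81. Leaving out each library in turn, with the lone sample assumed to vary like the others, gave 1903 to 3883 genes and 13 to 31 members lower at adjusted p, and a member median from -0.70 to -0.49. The log2 fold change of Chek2 turned to 0.064 under median-of-ratios factors, 0.11 without WT replicate 1 and 0.16 without R111A replicate 1, and was -0.17 without R111A replicate 2. The log2 fold change of Atrip turned to 0.0555 under median-of-ratios factors, 0.0546 under quantile normalization and 0.00136 without R111A replicate 1, and was -0.061 without R111A replicate 2. With replicate block, 9 of 32 members were called lower, against 821 of 9831 genes tested. In the same setting 25 members were lower at adjusted p (78.1%, against 34.2% of all genes). The replicates share only a number and nothing says they pair samples, with r = 0.11 between replicate differences over 9831 genes. Of 32 members, 8 were called lower under median-of-ratios factors, against 678 of 9831 genes tested. Under quantile normalization 10 were, against 723 of 9831 genes tested. In every setting 0 members were higher. The cause of these shifts was not tested.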
